A study of Mus musculus with 14 samples.

Results

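The 87 nuclear genes described here carry symbols of subunits of the mitochondrial oxidative phosphorylation complexes. Their transcripts were followed in mouse bone marrow cells of control and Dpy30 knockout genotype. Members were chosen by symbol from the 38926 entries of the LSK and MyePro count files: symbols starting with Ndufa, Ndufb, Ndufc, Ndufs, Ndufv, Uqcr, Atp5 or Cox4 to Cox8, together with Sdha, Sdhb, Sdhc, Sdhd and Cyc1. The 8 entries that are Ndufaf assembly factors or whose symbols end in -ps, the mark of a pseudogene, were dropped. The rule gave 38 members for complex I, 4 for complex II, 9 for complex III, 18 for complex IV and 18 for complex V, and all 87 had an entry among the 39179 Ensembl IDs of the LT-HSC files. Ndufa4, placed in complex I by its symbol, is now known as a complex IV subunit. Atp5l2, kept by the rule, is named Atp5l2-ps in RefSeq. Atp5s and Atp5sl are named Dmac2l and Dmac2 there, not as ATP synthase subunits, but are counted in complex V.

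Control cells were of genotype Mx1-Cre; Dpy30F/+ and knockout (KO) cells of genotype Mx1-Cre; Dpy30F/-, so both groups carried the interferon-inducible Cre transgene and a floxed Dpy30 allele. DPY30 belongs to the core of the SET1/MLL enzymes that place methyl groups on histone H3 lysine 4. Donor marrow of either genotype was mixed with wild-type competitor marrow and transplanted into irradiated mice. All recipients, controls included, received 4 injections of pIpC at 7.5 µg/g over 10 days, beginning 7 weeks after transplantation, and marrow was harvested 2 weeks after the last one. LSK cells comprise stem cells and early multipotent progenitors. For them and for MyePro cells, whose sorting gate the labels do not give, each genotype had 1 library from a pool of 2 to 3 mice. For long-term hematopoietic stem cells (LT-HSC) each genotype had 2 libraries, 1 from transplant 1 and 1 from transplant 2, whose RNA came from pools of 7 to 9 mice and was amplified. In such bulk samples, fewer cells of a type and less RNA per cell cannot be told apart. Here KO was compared with control in LSK, in MyePro and in LT-HSC, and MyePro with LSK in each genotype.

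Oxidative phosphorylation passes electrons from NADH (through complex I) or succinate (through complex II) to complex III and then to complex IV, which reduces oxygen. Complexes I, III and IV pump protons across the inner mitochondrial membrane, and complex V, the ATP synthase, uses their return to make ATP. Nuclear genes supply most subunits, while the mitochondrial genome (mtDNA) supplies a few catalytic ones, so both genomes contribute to every complex but II. Quiescent hematopoietic stem cells are known for low oxidative metabolism, and respiration increases as they differentiate.

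Gene counts per library ranged from 6130320 (KO LSK) to 20820762 (control MyePro) in LSK and MyePro, and from 38060087 (control LT-HSC 2) to 85499797 (KO LT-HSC 1) in LT-HSC. Dpy30 stood at 78.0 CPM (counts scaled by library size) in control LSK against 41.7 in KO LSK, and at 116 in control MyePro against 51.6 in KO MyePro. In LT-HSC it stood at 12.9 and 8.43 CPM in controls 1 and 2, at 14.1 in the library labelled KO 1 and at 4.67 in KO 2. Dpy30 thus went with the label in KO LT-HSC 2 but not in the library labelled KO LT-HSC 1, and LT-HSC results are given with each library's value. Of 9 hematopoietic stem cell markers, Kit, Procr, Slamf1 and Hlf among them, 9 were at or above 1 CPM in every LSK and LT-HSC library. MyePro libraries also passed this bar for 8 (control) and 9 (KO). The markers summed to 958 and 656 CPM in control and KO LSK and to 466 and 396 in MyePro. In LT-HSC they summed to 856 and 446 CPM in controls 1 and 2 and to 773 and 730 in the libraries labelled KO 1 and KO 2.

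Promoter sequences of 4 members past 1.5-fold in a KO comparison, Atp5b, Sdhd, Ndufa3 and Cox6b2, and of Cox6b1 as the widely expressed paralog of Cox6b2, are shown so that these genes can be set beside each other. Cox4i2, Ndufs1 and Cyc1 had no entry in the promoter table. Each run gives the 250 bases before the transcript start (RefSeq, GRCm38.p6), 5′ to 3′ on the gene's strand. For Ndufa3 the run ends inside the gene, whose RefSeq entry starts at base 3617347. Capitals mark GGGCGG or CCGCCC (the Sp/KLF box), CCGGAAG or CTTCCGG (the ETS site bound by GABPA) and TGCGCA (the core of the NRF1 site).
Atp5b (chr10:128083057-128083306, plus strand): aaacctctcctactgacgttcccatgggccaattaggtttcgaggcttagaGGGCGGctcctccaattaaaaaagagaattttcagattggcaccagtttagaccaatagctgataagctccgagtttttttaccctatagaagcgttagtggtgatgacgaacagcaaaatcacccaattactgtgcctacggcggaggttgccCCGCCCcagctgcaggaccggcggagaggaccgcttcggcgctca
Sdhd (chr9:50603850-50604099, minus strand): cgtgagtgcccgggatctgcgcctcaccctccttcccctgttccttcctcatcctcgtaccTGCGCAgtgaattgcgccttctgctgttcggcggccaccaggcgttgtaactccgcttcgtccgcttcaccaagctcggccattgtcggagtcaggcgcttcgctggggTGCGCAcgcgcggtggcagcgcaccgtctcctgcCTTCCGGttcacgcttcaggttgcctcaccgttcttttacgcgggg
Ndufa3 (chr7:3617123-3617372, plus strand): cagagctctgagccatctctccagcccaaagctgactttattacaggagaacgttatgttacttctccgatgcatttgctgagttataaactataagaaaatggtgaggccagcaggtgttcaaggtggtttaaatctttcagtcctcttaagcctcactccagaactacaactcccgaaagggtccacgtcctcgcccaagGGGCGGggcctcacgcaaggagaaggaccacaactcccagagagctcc
Cox6b2 (chr7:4753095-4753344, minus strand): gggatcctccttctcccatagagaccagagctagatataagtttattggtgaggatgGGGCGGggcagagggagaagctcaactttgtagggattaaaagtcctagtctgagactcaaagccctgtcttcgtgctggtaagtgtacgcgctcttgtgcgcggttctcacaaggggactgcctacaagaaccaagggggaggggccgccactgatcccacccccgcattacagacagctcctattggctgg
Cox6b1 (chr7:30626115-30626364, minus strand): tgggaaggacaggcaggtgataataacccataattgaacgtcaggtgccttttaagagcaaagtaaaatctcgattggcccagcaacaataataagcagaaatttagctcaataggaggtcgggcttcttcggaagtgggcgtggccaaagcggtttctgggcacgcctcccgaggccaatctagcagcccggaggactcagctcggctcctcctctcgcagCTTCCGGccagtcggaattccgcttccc

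Motifs were searched on both strands of windows of 300 bases, 250 before and 50 after the start. The windows were those of the 70 members with a RefSeq promoter and of 7733 expressed genes that had one. Genes counted as expressed here averaged 5 CPM or more between the control and KO LSK libraries. MyePro values were not used for this choice, and the 70 members were not filtered by expression when motifs were counted. For the medians below, expressed members were those that averaged 5 CPM or more between the control and KO MyePro libraries. The full NRF1 palindrome, bound by a regulator of mitochondrial genes, was in 5 member windows (7.14%) against 2.72% of windows of expressed genes. The YY1 motif AAGATGGC was in 11 (15.7%) against 5.91%, and the ERR motif TCAAGGTCA in 2 (2.86%) against 0.31%. CCGGAAG was in 16 member windows (22.9%) against 22.3%, the shorter core TGCGCA in 18 (25.7%) against 17.3%, and the cAMP response element TGACGTCA in 4 (5.71%) against 3.75%. GGGCGG was less frequent, in 29 member windows (41.4%) against 70.6%, beside a median GC content of 57.5% in member windows and 61.0% in those of expressed genes. The median log2 ratio of KO over control in MyePro was -0.08 for expressed members with the full NRF1 site and -0.06 for those without it, and 0.03 and -0.07 with and without the YY1 motif. It was -0.18 and -0.01 with and without TGCGCA, -0.13 and -0.01 for GGGCGG, -0.03 and -0.07 for CCGGAAG, -0.17 and -0.07 for TGACGTCA, and -0.58 and -0.06 for TCAAGGTCA, which only 2 members hold. These are matches of letters and do not show binding.

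In LSK cells, most nuclear subunit transcripts of the KO library lay slightly above the control, and only 3 members differed by 1.5-fold. Of the 87 members, 80 passed the minimum of a mean of 5 CPM over the 2 libraries; Ndufa4l2, Cox6a2, Cox7a1, Cox7b2, Cox8b, Cox8c and Atp5l2 did not. With 1 library per genotype there is no test, and ratios are log2 ratios of TMM-normalized CPM (TMM scales libraries to a trimmed mean of ratios) with a prior count of 2. Past 1.5-fold, 2 members were higher in KO LSK (Ndufa3 and Cox4i2; background over all 10299 genes 10.5%) and 1 was lower (Cox6b2; background 13.5%). Past 2-fold the counts were 1 higher, Cox4i2 (background 4.78%), and 1 lower, Cox6b2 (background 5.67%). The ratio was positive for 59 of the 80, with a median of 0.16, beside -0.06 over all genes. With scaling by library totals alone, the median of all genes moved to 0.09 and that of the members to 0.31. Then 10 members passed 1.5-fold, 9 of them higher, and the share of all genes was not counted under that scaling.

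The complexes differed a little in LSK. The median ratio was 0.23 in complex I (31 of 37 members positive), 0.24 in complex IV (11 of 13), 0.11 in complex III (5 of 9) and 0.08 in complex V (10 of 17). In complex II it was -0.07 (2 of 4 positive), which turned to 0.09 with library totals. Summed over members, complex V was at 5051 CPM in control LSK and 4745 in KO LSK, and complex II at 932 and 917, both lower in KO. In complex V, Atp5b alone went from 1518 to 1139 CPM, while 10 of 17 members were positive. Complex I summed to 3147 and 3508 CPM, complex III to 1361 and 1439 and complex IV to 1914 and 2241, all higher in KO.

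In MyePro cells the picture spread to both sides. Past 1.5-fold, 3 of 80 members were higher in KO MyePro (Cox4i2, Ndufa3 and Ndufs4; background over 10249 genes 18.3%) and 6 were lower (Cox6b2, Ndufs1, Sdhd, Atp5b, Cyc1 and Ndufa10; background 22.4%). Both shares of the members, 3.75% and 7.5%, were thus below those of all genes. Ndufs4 (0.59) and Ndufa10 (-0.59) lay at the line. With RLE size factors Ndufs4 (0.58) no longer passed and the split was 2 higher and 7 lower. With library totals Ndufa10 (-0.51) no longer passed and the split was 4 and 5. The shares of all genes were not counted under these scalings. Past 2-fold, Cox4i2 alone was higher (background 10.7%) and Cox6b2 alone lower (background 8.63%). The median ratio was -0.06 with 36 positive and 44 negative members, beside -0.12 over all genes, and it became 0.01 with library totals. By complex it was 0.06 in I, -0.40 in II, -0.07 in III, -0.01 in IV and -0.14 in V, and with library totals the medians of III and IV turned to 0.01 and 0.07.

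**Figure D1:**
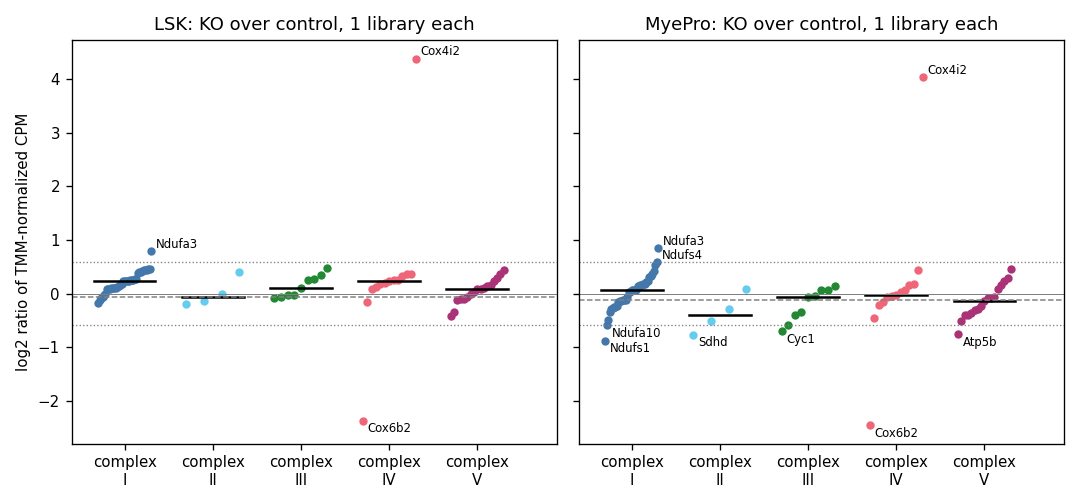
Log2 ratio of KO over control (TMM-normalized CPM, prior count 2) for each member past the expression minimum, in LSK (left) and MyePro (right), 1 library each; points are genes, black bars the median of each complex, the dashed line the median of all genes and the dotted lines 1.5-fold. Cox4i2 and Cox6b2 stand far from the other members in both populations, while Ndufs1, Sdhd, Cyc1 and Atp5b pass the lower line only in the MyePro panel.

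Of the 6 members past the lower line in MyePro, 4 (Ndufs1, Sdhd, Cyc1 and Atp5b) were on a list of core subunits given in full after them. Ndufs1, the largest iron-sulfur subunit of complex I, was at 99.6 CPM in control LSK, 87.8 in KO LSK, 162 in control MyePro and 88.2 in KO MyePro, a MyePro log2 ratio of -0.87 (95% interval for counting error -0.98 to -0.77). Its KO values in both populations were close to each other, and the control MyePro library was the high one.

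Sdhd, a membrane anchor of succinate dehydrogenase, showed the same pattern: 207 and 182 CPM in control and KO LSK, then 336 and 198 in MyePro (log2 ratio -0.76, interval -0.83 to -0.70). Cyc1, the cytochrome c1 of complex III, was at 181 and 178 CPM in LSK and at 285 and 176 in MyePro, control first (MyePro log2 ratio -0.70). Atp5b, the catalytic beta subunit of the ATP synthase, was at 1518, 1139, 2169 and 1292 CPM in the same order, with log2 ratios of -0.41 in LSK and -0.75 in MyePro. It was lower in KO in both populations. Ndufa10, an accessory subunit of complex I, was at 165, 156, 251 and 167 CPM (MyePro log2 ratio -0.59). Just outside the line lay Uqcrc2, a core protein of complex III, with a MyePro log2 ratio of -0.58, followed by Sdha, the flavoprotein of complex II, with -0.52.

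Over a list of 22 members, called core subunits here (7 of complex I, the 4 of complex II, and Uqcrc1, Uqcrc2, Uqcrfs1, Cyc1, Cox4i1, Cox5a, Cox5b, Atp5a1, Atp5b, Atp5c1 and Atp5o), 19 had a negative MyePro ratio and the median was -0.33, beside 5877 of 10249 genes negative and a median of -0.12 over all genes. Past 1.5-fold, 4 of the 22 were lower (background 22.4%) and 0 higher (background 18.3%), so the count of lower members was no larger than the background gives. The list is broader than the catalytic core, since Cox4i1, Cox5a and Cox5b are supernumerary subunits of complex IV, and it leaves out Atp5d and Atp5e of the ATP synthase, whose MyePro ratios were 0.23 and 0.47. The other 58 members past the minimum had a median of 0.07, with 33 positive. In LSK the same split gave -0.03 for the core subunits and 0.23 for the others. The exceptions among the core in MyePro were Sdhc (0.10), Ndufs3 (0.06) and Ndufs7 (0.03). These medians describe 1 library per genotype and carry no test.

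The MyePro comparison also held members that were higher in KO. Ndufa3, a small accessory subunit of complex I, was at 56.1 CPM in control LSK and 97.4 in KO LSK (log2 ratio 0.79, interval 0.65 to 0.95), and at 77.8 and 140 in control and KO MyePro (0.85, interval 0.75 to 0.95). Its value was higher in KO in both populations by similar amounts. Ndufs4, whose loss in mice gives a Leigh-like disease, was at 47.5 and 64.3 CPM in control and KO LSK and at 50.6 and 76.1 in MyePro (0.43 and 0.59). Ndufc1 (0.54) and Atp5e, the epsilon subunit of the ATP synthase (0.47), came next in MyePro.

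The members furthest from the rest were paralogs of complex IV subunits. Cox4i2, known as the lung isoform of subunit 4 and as a hypoxia-responsive gene, was at 1.22 CPM in control LSK (18 counts) and 28.6 in KO LSK (192 counts), a log2 ratio of 4.38 (interval 3.85 to 5.33). In MyePro it was at 0.67 CPM (13 counts) and 13.3 CPM (152 counts), a log2 ratio of 4.04 (interval 3.50 to 5.26). It passed the expression minimum only through its KO values. Its widely expressed paralog Cox4i1 was at 328 and 359 CPM in LSK and at 479 and 466 in MyePro, log2 ratios of 0.13 and -0.04.

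Cox6b2, known as the testis isoform of subunit 6b, moved the other way. It was at 23.6 CPM in control LSK (347 counts) and 4.46 in KO LSK (30 counts), a log2 ratio of -2.36 (interval -2.99 to -1.86). In MyePro it was at 48.6 CPM (949 counts) and 8.75 (100 counts), a log2 ratio of -2.45 (interval -2.79 to -2.18). Its paralog Cox6b1 was at 191 and 215 CPM in LSK and at 284 and 281 in MyePro, ratios of 0.18 and -0.01.

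The remaining tissue-restricted paralogs were at or near 0. Cox7b2, Cox8b and Cox8c had 0 counts in all 8 libraries, where the limit that a count of 0 allows is 3 counts per library. Cox6a2 and Cox7a1, the heart and muscle isoforms, stayed below 1 CPM in every library, as did Ndufa4l2 and Atp5l2. Their widely expressed counterparts Cox6a1, Cox7a2, Cox7b and Cox8a had LSK ratios of 0.37, 0.09, 0.37 and 0.33 and MyePro ratios of 0.18, -0.15, -0.06 and 0.03. The 3 genes for the c ring of the ATP synthase, Atp5g1, Atp5g2 and Atp5g3, had MyePro ratios of -0.51, -0.40 and -0.39.

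Cox4i2 (GRCm38.p6, chr2:152753916-152765039) overlaps Bcl2l1 in the RefSeq annotation, and the strand setting of the counting is not given. It is therefore not known whether reads from the overlap were counted for 1 of these genes or set aside as ambiguous. Bcl2l1, an inhibitor of apoptosis, was at 42.4 and 57.4 CPM in control and KO LSK and at 17.8 and 69.8 in MyePro. Id1, a helix-loop-helix inhibitor whose gene lies 16506 bases away, was at 3.53 and 18.7 CPM in LSK and at 4.61 and 25.3 in MyePro. Farther away, H13 had KO log2 ratios of 0.11 in LSK and 0.17 in MyePro, and Mcts2, below 1 CPM in these libraries, -0.11 and -0.94. In LT-HSC, Bcl2l1 was at 13.0 and 18.0 CPM in controls 1 and 2. In the libraries labelled KO it was at 8.02 and 7.16. Whether reads of Bcl2l1 entered the Cox4i2 counts was not tested in any population. Cox6b2 (chr7:4751792-4753094) overlaps no other RefSeq gene. In all, 27 members overlap another RefSeq gene.

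**Figure D2:**
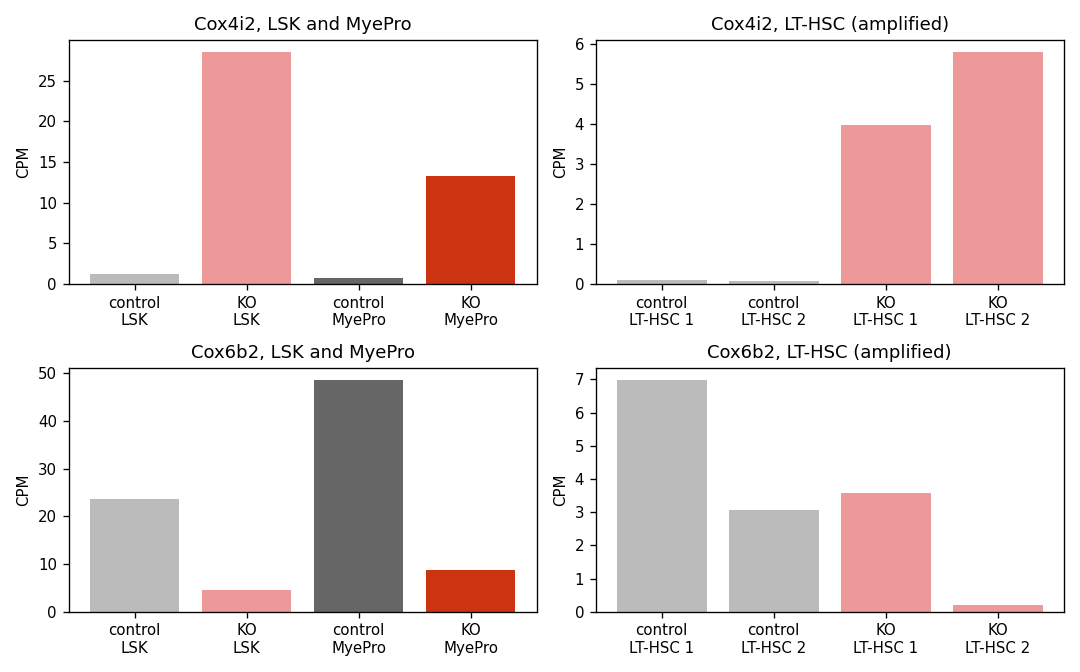
TMM-normalized CPM of Cox4i2 (top) and Cox6b2 (bottom) in each LSK and MyePro library (left) and each LT-HSC library (right); bars are single libraries and the left and right panels were normalized apart. Cox4i2 stays near 0 in all 4 control libraries and is at 28.6 and 13.3 CPM in KO LSK and KO MyePro, while Cox6b2 has 23.6 and 48.6 CPM in control LSK and MyePro and 4.46 and 8.75 in KO.

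The KO comparison in LSK and that in MyePro share no library. Across the 80 members, the KO effects in LSK and MyePro had a Pearson r of 0.935, and of 0.735 over 78 members without Cox4i2 and Cox6b2, beside 0.745 over 9973 genes. Members are not independent replicates, and the 4 libraries were normalized together. The KO effect was lower in MyePro than in LSK for 69 of 80 members, with a median difference of -0.23, beside -0.06 over all genes, of which 5506 of 9973 were negative. Among the core subunits 22 of 22 differences were negative (median -0.30).

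From LSK to MyePro, control cells had higher nuclear subunit transcripts almost throughout. In control MyePro over control LSK, 21 of 79 members (26.6%) were higher by 1.5-fold (background over 10074 genes 9.95%) and 0 were lower (background 13.1%). The ratio was positive for 78 of 79, the exception being Cox7a2l, a supercomplex assembly protein, at -0.13. The median was 0.48, beside 0.08 over all genes. Medians by complex were 0.44 in I, 0.41 in II, 0.54 in III, 0.57 in IV and 0.45 in V. The highest ratios were those of Cox6b2 (1.04), Atp5g1 (0.86), Ndufa5 (0.80), Uqcr11 (0.77) and Ndufs6 (0.76), and Cox6b2 was the only member at least 2-fold higher (background 3.17%), with 0 at least 2-fold lower (background 6.87%).

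In KO cells the same step was smaller. In KO MyePro over KO LSK, 3 of 80 members were higher by 1.5-fold (Cox6b2 0.95, Ndufa1 0.81 and Ndufc1 0.67; background over 10345 genes 8.72%) and 1 was lower (Cox4i2, -1.09; background 5.18%). Past 2-fold, 0 were higher (background 3.28%) and Cox4i2 was lower (background 1.49%). The ratio was positive for 76 of 80, with a median of 0.25, beside 0.01 over all genes. With library totals the medians became 0.10 for the members and -0.13 for all genes. Sdhd went from a log2 ratio of 0.70 in control to 0.12 in KO, Ndufs1 from 0.70 to 0.01, Cyc1 from 0.66 to -0.02 and Atp5g1 from 0.86 to 0.28. These comparisons share their libraries with the KO comparisons above, so they restate the same 4 values of each gene.

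**Figure D3:**
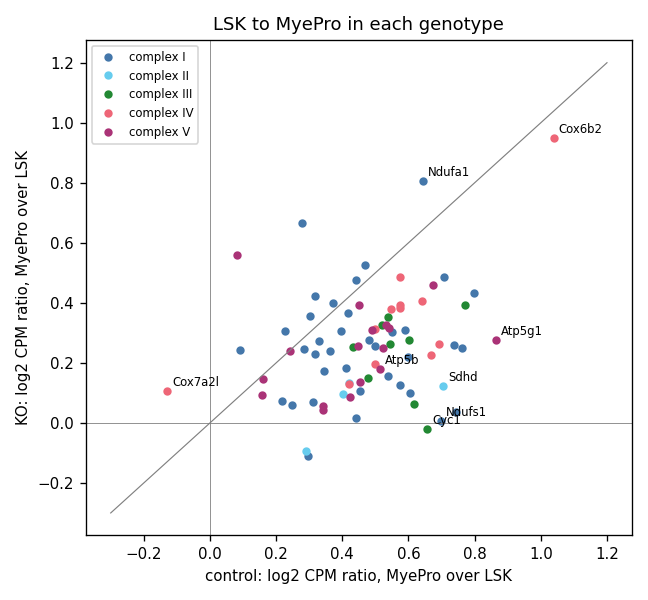
Log2 ratio of MyePro over LSK for each member in control (horizontal axis) and KO (vertical axis), 1 library each, coloured by complex; the diagonal marks equal ratios and Cox4i2, which is below the expression minimum in control, is not drawn. Most points lie right of 0 and under the diagonal, with Sdhd, Ndufs1 and Cyc1 close to 0 on the vertical axis.

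Summed over all 87 members, CPM was 12406 in control LSK, 12849 in KO LSK, 17153 in control MyePro and 14926 in KO MyePro. KO over control was 1.04 in LSK and 0.870 in MyePro, and MyePro over LSK was 1.38 in control and 1.16 in KO. Within MyePro the KO sum was lowest relative to control for complex II (0.746) and complex V (0.788), and closest to it for complex IV (0.999) and complex I (0.979). Abundant genes weigh most in these sums, and complex V held 40.7% of the control LSK sum. From control to KO MyePro, Atp5b fell from 2169 to 1292 CPM and Atp5a1 from 1777 to 1390. By gene, 36 of the 80 members past the minimum had positive MyePro ratios, with a median of -0.06.

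In KO over control, the subunits encoded by mtDNA had higher median ratios than the nuclear ones. From LSK to MyePro the mtDNA and nuclear medians were 0.49 (12 of 12 positive) and 0.48 in control, and 0.59 and 0.25 in KO. Summed CPM of the mtDNA-encoded subunits was 25997 in control LSK, 38433 in KO LSK, 35636 in control MyePro and 55787 in KO MyePro. The ratios of KO over control were 1.48 in LSK and 1.57 in MyePro. Of the 13 mtDNA genes, 12 passed the minimum (mt-Nd4l did not). In LSK all 12 had positive ratios, 6 of them past 1.5-fold, with a median of 0.59. In MyePro 11 were positive, 8 of them past 1.5-fold, with a median of 0.66 and mt-Atp8 at -0.12. Over all genes, 10.5% were 1.5-fold higher in LSK and 18.3% in MyePro. The sum of mtDNA-encoded over nuclear-encoded CPM was 2.10 in control LSK, 2.99 in KO LSK, 2.08 in control MyePro and 3.74 in KO MyePro. Mitochondrial ribosomal RNA took 0.202%, 0.132%, 0.0727% and 0.317% of gene counts in the same order, so its share was lower in KO LSK and higher in KO MyePro than in the controls.

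**Figure D4:**
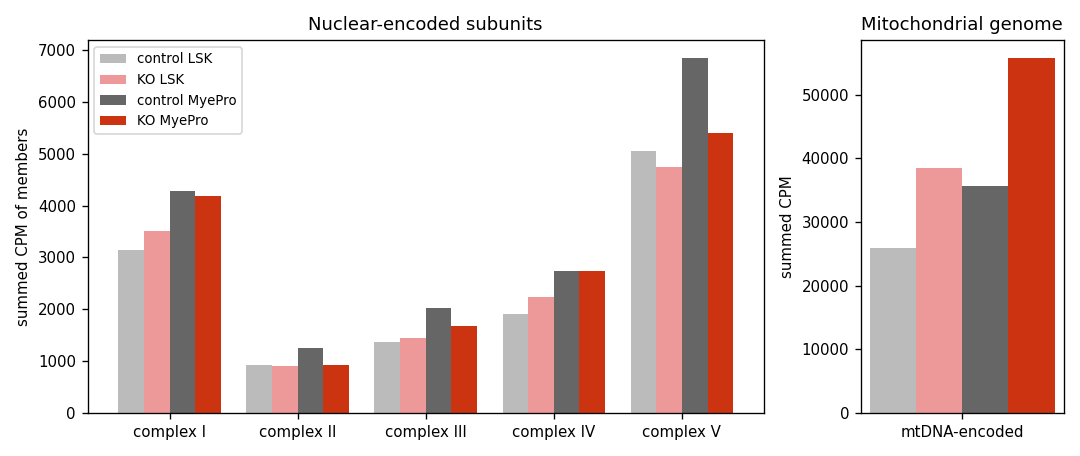
Summed TMM-normalized CPM of the nuclear members of each complex (left) and of the mtDNA-encoded subunits (right, own axis) in the 4 LSK and MyePro libraries; each bar is 1 library. Complexes II, III and V are lower in KO MyePro than in control MyePro, and the mtDNA-encoded sum is higher in KO than in control in both populations.

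Other mitochondrial lists were set beside the members. Of 16 genes of the TCA cycle and pyruvate dehydrogenase, 16 had negative KO ratios in MyePro, 6 past 1.5-fold, with a median of -0.50, and in LSK 11 were negative, 1 past 1.5-fold (median -0.16). Beside these and the lists that follow, all genes had medians of -0.12 in MyePro and -0.06 in LSK, with 22.4% lower and 18.3% higher by 1.5-fold in MyePro and 13.5% lower and 10.5% higher in LSK. The lowest was Pdha1, the E1 alpha subunit of pyruvate dehydrogenase, at 181 and 104 CPM in control and KO LSK and at 219 and 99.4 in MyePro. Of the assembly factors, 10 of 37 were lower and 2 higher by 1.5-fold in KO MyePro (median -0.21), against 0 and 1 of 35 in LSK (median -0.08). Ndufaf4, which helps to build complex I, had the lowest MyePro ratio (-1.17), and Sdhaf1, an assembly factor of complex II, the highest (0.93). Of the regulators of mitochondrial biogenesis, 4 of 13 were lower and 0 higher in KO MyePro (median -0.50), and 3 of 12 were lower in LSK (median -0.21). Pprc1, a coactivator of the PGC-1 family, had the lowest MyePro ratio (-1.32), and Gabpb2, a beta subunit of the GABP factor, the lowest in LSK (-1.08).

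Marker genes of other cell types moved with genotype in the same libraries. The 12 erythroid markers summed to 1854 CPM in control LSK and 816 in KO LSK, and to 6340 and 932 in MyePro. In KO LSK Slc4a1 was at 0, and 11, 8, 11 and 11 of the 12 reached 1 CPM, in the order of the 4 sums. The 10 megakaryocyte markers summed to 621 and 869 CPM in LSK and to 177 and 1707 in MyePro, where Gp6 was at 0 in the control. The 9 mature neutrophil markers summed to 34.1 and 301 CPM in LSK and to 40.6 and 765 in MyePro; S100a8, S100a9 and Retnlg were at 0 in control LSK, Ltf in KO LSK and Camp in both MyePro libraries. The 9 myeloid progenitor markers, 9 of 9 at or above 1 CPM in all 4 libraries, summed to 11600 and 6912 CPM in control and KO MyePro. The 9 T and NK cell markers summed to 206 and 576 CPM in LSK and to 212 and 643 in MyePro, with Cd3e, Cd3g, Trac and Gzma at 0 in control LSK, Gzma and Ncr1 in control MyePro and Cd3g and Cd8a in KO MyePro. The 8 macrophage and dendritic cell markers found summed to 475 and 255 CPM in LSK and to 88.5 and 350 in MyePro, and the 7 B cell markers to 25.2 and 2.83 CPM in LSK and 20.7 and 5.95 in MyePro, with Ms4a1 and Ebf1 at 0 in all 4 libraries. The control and KO libraries of a population thus differed in marker content as well as in genotype, most of all in MyePro, and the part of this difference in the subunit values was not tested.

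In LT-HSC, no member passed the test, and the set as a whole was centred on 0. Of 80 members tested with edgeR's quasi-likelihood test, 0 were higher and 0 lower at an adjusted p (Benjamini-Hochberg) under 0.05, beside a background over 12844 genes of 0.0% higher and 0.0156% lower. At an unadjusted p under 0.05, 1 member was higher and 0 lower (background 1.01% and 1.28%); DESeq2 called 1 member and limma-voom 0, beside 14 and 1 of the 12844 genes. Both KO libraries lay above both controls for 12 members (background 13.8%) and below both for 14 (background 13.9%). The median log2 fold change was 0.00, with 40 positive and 40 negative members, as it was over all genes (0.00), and the median standard error of a member was 0.394. At that error, differences of the size seen in LSK and MyePro for most members were not detectable.

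The member with the smallest p was Cox4i2. It stood at 0.108 and 0.0693 CPM in controls 1 and 2 (5 and 3 counts), at 3.97 in the library labelled KO 1 (197 counts) and at 5.80 in KO 2 (395 counts). The groups did not overlap, and the direction was that of LSK and MyePro. The log2 fold change was 5.74 ± 0.930 (SE, n = 2 libraries per genotype), with an unadjusted p of 0.000450 and an adjusted p of 0.825 in edgeR. The adjusted p was 0.504 with the transplant number as a block and 1.83e-05 in DESeq2. Cox4i2 passed the expression minimum only through the KO libraries, so a gene of this kind had to differ, and these values describe it and support nothing beyond it. The controls rest on 8 counts, few enough that the size of this fold is poorly fixed.

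Cox6b2 stood at 6.99 and 3.07 CPM in controls 1 and 2, at 3.59 in the library labelled KO 1 and at 0.191 in KO 2 (13 counts). The groups overlapped, although KO was the lower library in each transplant, with log2 ratios of -0.96 and -3.82. The fold change was -1.42 ± 1.22 (SE, edgeR; adjusted p 0.999), and it was -2.39 with the transplant block. Leaving out 1 library gave -4.71 without the library labelled KO 1, -1.89 without control 2, -0.69 without control 1 and -0.49 without KO 2, so its size rests on single libraries.

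Of the members next in order of p, Ndufb8, an accessory subunit of complex I, was at 5.63 and 4.14 CPM in controls and 8.59 and 13.4 in KO (log2 fold change 1.17, edgeR adjusted p 0.999). Ndufs4 was at 18.6 and 26.4 CPM in controls and 8.67 and 16.4 in KO (-0.84, edgeR adjusted p 0.999). In both genes the KO libraries lay on 1 side of the controls, above for Ndufb8 and below for Ndufs4. Over all genes this held for 13.8% and 13.9%. Ndufs4 was thus on the lower side in LT-HSC and on the higher side in KO LSK and KO MyePro, and so was Ndufa3, at 12.7 and 23.3 CPM in controls and 8.53 and 12.8 in KO (-0.75), whose groups overlapped. The difference between populations was not tested. Cox5b (0.73), Ndufa1 (0.93) and Ndufa9 (0.47) completed the 5 smallest p-values among higher members, and Uqcrc1 (-0.68), Ndufb11 (-0.67), Atp5g3 (-0.55) and Ndufv2 (-0.73) those among lower ones.

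Of the 4 core subunits past the lower line in MyePro, 3 had overlapping groups in LT-HSC. Ndufs1 was below the controls in both KO libraries without passing the test (log2 fold change -0.20, edgeR adjusted p 0.999). Both KO libraries lay below both controls for 13.9% of all 12844 genes. Atp5b was at 249 and 256 CPM in controls and 239 and 270 in KO, Sdhd at 22.3 and 31.3 against 28.0 and 29.6, and Ndufs1 at 19.1 and 19.1 against 16.7 and 16.6. Cyc1 was at 17.9 and 14.1 CPM in controls, at 4.56 in the library labelled KO 1 and at 18.1 in KO 2. For Cyc1 a single library was thus the low one.

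**Figure D5:**
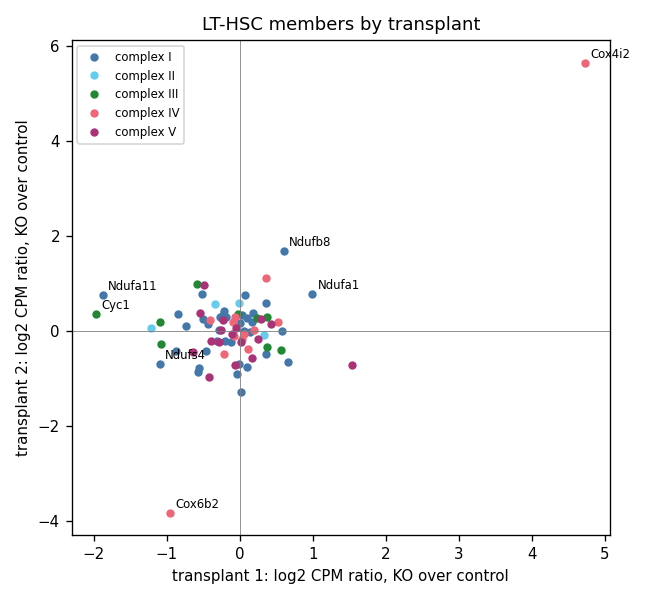
Log2 ratio of KO over control for each member in LT-HSC transplant 1 (horizontal axis) and transplant 2 (vertical axis), 1 library per genotype in each, coloured by complex. Cox4i2 is high in both transplants (4.73 and 5.66), Cox6b2 is low in both, and Cyc1 and Ndufa11 are low in transplant 1 only.

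The transplants often differed. The sign of the KO ratio was the same in both for 39 of 80 members, and members ranged from -1.97 (Cyc1) to 4.73 (Cox4i2) in transplant 1 and from -3.82 (Cox6b2) to 5.66 (Cox4i2) in transplant 2. The complex III and complex V medians were -0.03 and -0.11 in transplant 1 and 0.28 and -0.16 in transplant 2. The mtDNA-encoded subunits had a median of 1.66 in transplant 1 and -0.32 in transplant 2, and the edgeR median of 0.81 over all 4 libraries became -0.05 without the library labelled KO 1, 0.35 with ERCC spike-in size factors and 0.21 with library totals. That library also had the largest share of mitochondrial ribosomal RNA, 62.4% of gene counts against 45.1%, 49.6% and 49.3% in control 1, control 2 and KO 2. The mtDNA-encoded over nuclear-encoded sum was 15.9, 26.1, 53.7 and 20.2 in control 1, control 2, the library labelled KO 1 and KO 2, a range in which the high value was that same library. The other lists had LT-HSC medians of 0.22 for the assembly factors, -0.04 for the regulators of biogenesis and -0.02 for the TCA cycle. Among marker lists, the erythroid markers summed to 455 and 279 CPM in controls 1 and 2 and to 231 and 230 in the libraries labelled KO 1 and KO 2. The mature neutrophil markers summed to 74.7, 364, 166 and 249 CPM in the same order, and these groups overlapped. In that order the myeloid progenitor markers summed to 110, 354, 103 and 301 CPM and the T and NK cell markers to 13.0, 54.1, 11.6 and 46.3. The B cell markers summed to 5.05, 38.6, 6.96 and 23.9. These 4 lists were higher in transplant 2 in each genotype. Macrophage and dendritic cell markers (69.2, 234, 101 and 113) were also higher in transplant 2 in each genotype, by less in KO. Megakaryocyte markers (275, 250, 183 and 419) were higher in transplant 2 only in KO. The part of any list in the subunit values was not tested.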

How the data were processed

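The authors deposited raw counts per gene, 1 file per library, listed by symbol for LSK and MyePro and by Ensembl ID for LT-HSC. The submitters' processing notes name build mm10 and, among other tools, HTSeq 0.6.0, TopHat2, Picard 1.126, CASAVA 1.8.4 and DESeq 3.0. What each did, the strand setting and the gene annotation are not given in sources used here. PolyA selection and, for LT-HSC, RNA amplification preceded library preparation, per the labels' protocols. Entries that name no gene stayed out of library sizes: reads without a feature were 2.40% to 6.25% of the file totals in LSK and MyePro and 16.7% to 26.0% in LT-HSC. An entry named DPY30-SPKIG, which the labels do not explain, was also kept out. The 6 ChIP samples were not analysed here.

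The members and lists, and the rule for the genes named, were chosen with earlier results of these data known. That rule took Dpy30, the 5 highest and 5 lowest ratios of a comparison, the 5 smallest p-values on each side in LT-HSC, the core subunits and the paralog groups. Not all are given values here.

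LT-HSC counts were fitted with edgeR 4.0.16 (R 4.3.3; TMM, genes reaching 1 CPM in 2 or more of the 4 libraries, quasi-likelihood test, two-sided, Benjamini-Hochberg over all genes tested). Per the labels, a control and a KO library with 1 number come from 1 transplant, which pairs them, and the correlation of their deviations from the group means was 0.285; the fit with that number as a block was an alternative, as were DESeq2 1.42.0 and limma 3.58.1. The scripts were tested on simulated data. LSK and MyePro have 1 library per group and no test; 95% intervals cover counting error only. Their CPM and those of LT-HSC were normalized apart. No per-length values were computed, so levels are not compared between genes.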

Additional observations from a re-analysis of the deposited data

How the results depend on the processing

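The counts of members past 1.5-fold (3 in LSK, 9 in MyePro, 21 in control MyePro over LSK and 4 in KO MyePro over LSK) and the medians were recomputed under other scalings, expression minimums, prior counts and depths. With library totals, 10 members passed in KO LSK over control, 9 higher and 1 lower. The LSK median became 0.31, beside 0.09 over all genes. The MyePro median turned to 0.015 (all genes -0.04), and that of KO MyePro over LSK became 0.10 (all genes -0.13). Shares of all genes past 1.5-fold were counted only for the TMM ratios, so these recomputed counts have no background. With a mean of at least 20 CPM, 1 member passed in LSK. Past 2-fold, 2 members remained in the MyePro count, 1 in control MyePro over LSK and 1 in KO MyePro over LSK. In LT-HSC the median turned to -0.00406 with RLE size factors, to -0.00237 with TMM without mitochondrial rRNA and to -0.39 with library totals (all genes -0.35). Leaving out 1 library in turn gave medians from -0.0957 to 0.0778. Without either KO library Cox4i2 was below the expression minimum. DESeq2 called 1 member, Cox4i2. For the mtDNA-encoded subunits, the LT-HSC median ran from -0.049 (without the library labelled KO 1) to 1.35 (without KO 2) when 1 library was left out. In the fit with the transplant number as a replicate block, 0 members were called, beside 4 of all 12844 genes (2 without the block). The median was 0.00569, and the block changed no call among the members.

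The LSK and MyePro values rest on 1 library per genotype, so no spread between replicates is known, and the KO LSK library had the fewest counts. In LT-HSC, 2 libraries per genotype, amplification and the standard error of the members limit what can be seen. Dpy30 in the library labelled KO 1 was not below the controls. Replicates are pools of mice, and competitor cells were present in all recipients.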
